A study of Mus musculus with 16 samples.

Results

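The comparison described here set bone marrow progenitors that carried both the Booreana mutation of Myb and the leukaemia oncogene AML1-ETO9a against progenitors that carried neither. Its members were the 4 arrays titled as Booreana AML1-ETO9a replicates 1 to 4 and the 4 arrays titled as wild-type control replicates 1 to 4, 8 of the 16 arrays in the series. Gene expression had been read on Illumina mouse BeadChips, which report 1 signal intensity per probe. All cells came from the bone marrow of mice aged 8 weeks, either Booreana or age-matched wild-type C57Bl/6, and had been enriched for c-Kit, the receptor for stem cell factor. The Booreana AML1-ETO9a group had received an MSCV retrovirus carrying AML1-ETO9a together with green fluorescent protein, and the wild-type control group the same vector with green fluorescent protein alone. Both groups grew in serum with IL-3, IL-6 and stem cell factor, and both were sorted as green, c-Kit positive cells 48 hours after transduction. The vector backbone with green fluorescent protein, the cytokine culture and the sort were therefore shared, and the groups differed in genotype and in virus at once. The other 2 groups, wild-type AML1-ETO9a and Booreana control, hold 1 of these changes each and entered the statistical fit. The labels mention 4 Booreana mice but do not tie replicates to separate animals, so the spread behind each p-value is that between arrays and may be technical.

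c-Myb is a transcription factor that blood progenitors need, and it switches on many of its targets by recruiting the coactivator p300. Booreana is an amino acid substitution in c-Myb that weakens this contact. AML1-ETO fuses the DNA-binding part of RUNX1 (AML1) to the corepressor RUNX1T1 (ETO), and AML1-ETO9a is a shorter splice form of it that drives leukaemia readily in mice. Among the genes that c-Myb and RUNX1 are known to control are those of the neutrophil primary granules, the enzyme stores that promyelocytes fill early in granulocyte development.

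Promoter sequences are shown first for the genes on which the results turn. The 5 genes with the smallest p for a level beyond all 3 other groups, among those with a promoter in the reference table, were Ackr1, Slamf1, Spic, Elane and Serpinf1. Mpo and Prtn3 were added after their values were seen, because the RNA of these granule enzyme genes fell together with that of Elane. Each line gives the 250 bases before the transcription start in the direction of the gene, from RefSeq on GRCm38.p6. Capitals mark matches on either strand to motifs of 3 factor families. The Myb motif is CAACTG, which may also read CAACGG. Its first base may be T instead, as in TAACTG and likewise in TAACGG. The RUNX motif is TGTGGT. The GATA motif is AGATAA, with TGATAA as its other form.
Elane promoter (chr10:79886062-79886311, plus strand): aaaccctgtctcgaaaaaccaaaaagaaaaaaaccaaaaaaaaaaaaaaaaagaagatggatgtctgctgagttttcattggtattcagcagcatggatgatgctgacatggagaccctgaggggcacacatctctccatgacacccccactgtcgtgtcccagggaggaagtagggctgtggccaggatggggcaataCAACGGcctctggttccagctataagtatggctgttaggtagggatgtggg
Prtn3 promoter (chr10:79879417-79879666, plus strand): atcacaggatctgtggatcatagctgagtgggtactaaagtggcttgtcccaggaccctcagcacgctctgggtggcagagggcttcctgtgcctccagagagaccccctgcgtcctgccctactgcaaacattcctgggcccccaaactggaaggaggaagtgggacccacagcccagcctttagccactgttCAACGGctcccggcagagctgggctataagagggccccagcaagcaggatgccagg
Mpo promoter (chr11:87793534-87793783, plus strand): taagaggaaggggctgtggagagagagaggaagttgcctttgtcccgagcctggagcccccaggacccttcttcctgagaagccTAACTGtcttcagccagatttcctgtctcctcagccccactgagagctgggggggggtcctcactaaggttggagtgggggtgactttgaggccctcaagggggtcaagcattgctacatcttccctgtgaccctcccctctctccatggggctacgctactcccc
Serpinf1 promoter (chr11:75422624-75422873, minus strand): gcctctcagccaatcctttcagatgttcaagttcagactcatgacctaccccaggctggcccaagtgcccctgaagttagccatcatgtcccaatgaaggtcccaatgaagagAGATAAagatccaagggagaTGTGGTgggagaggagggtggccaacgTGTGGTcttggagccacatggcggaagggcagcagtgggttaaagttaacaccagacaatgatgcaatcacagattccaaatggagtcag
Slamf1 promoter (chr1:171766882-171767131, plus strand): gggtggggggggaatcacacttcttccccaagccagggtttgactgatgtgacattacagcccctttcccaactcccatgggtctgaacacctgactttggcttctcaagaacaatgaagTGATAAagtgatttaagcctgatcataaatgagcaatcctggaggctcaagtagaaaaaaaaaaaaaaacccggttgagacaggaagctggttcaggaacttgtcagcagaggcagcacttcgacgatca
Ackr1 promoter (chr1:173333504-173333753, minus strand): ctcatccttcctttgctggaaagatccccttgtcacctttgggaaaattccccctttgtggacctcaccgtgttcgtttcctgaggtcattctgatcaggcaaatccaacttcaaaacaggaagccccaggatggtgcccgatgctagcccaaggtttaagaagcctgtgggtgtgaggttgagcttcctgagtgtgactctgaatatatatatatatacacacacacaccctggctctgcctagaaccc
Spic promoter (chr10:88683024-88683273, minus strand): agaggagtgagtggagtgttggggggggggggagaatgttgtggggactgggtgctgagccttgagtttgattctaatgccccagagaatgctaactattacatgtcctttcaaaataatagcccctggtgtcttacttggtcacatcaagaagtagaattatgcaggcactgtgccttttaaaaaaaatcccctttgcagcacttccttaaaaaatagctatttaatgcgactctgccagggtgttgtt
Counted from the transcription start, the Myb motif CAACGG began at position -51 in Elane and -56 in Prtn3, and TAACTG at -166 in Mpo. No printed match overlapped another. Of the 12 neutrophil primary granule genes tested, 11 had a promoter in the table and 6 of these held a Myb motif in this window (Mpo, Elane, Prtn3, Ctsg, Srgn and Calr), and the share over all 32851 promoters was 23.7%. The RUNX motif was in 2 of the 11 (14% of all promoters) and a GATA motif in 0 of the 11 (16.6%). Of 9 genes with a promoter among those beyond all other groups, 2 held a Myb motif, 1 the RUNX motif and 2 a GATA motif. In these gene counts a gene with several listed starts held a motif if any start did, whereas the shares count single promoters. These matches are descriptions of the letters and were not tested for binding.

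The 8 arrays were alike in depth. Their median intensity lay between 189 and 228, between 11122 and 12002 of 25697 probes were detected on each, and the mean correlation of an array with the other 7 lay between 0.941 and 0.963. The first principal component held 51.0% of the variance and separated the groups, while the second, with 19.1%, was lowest on Booreana AML1-ETO9a array 2 and wild-type control array 1. Among the arrays that only entered the shared fit, Booreana control array 2 stood apart, with a mean correlation of 0.845 with the other 15 and 10158 probes detected. Calls of named genes that ended without these arrays, and counts over all probes that changed by over 1.5 times, are given with the results. Counts within gene lists that changed as much are given for some lists only.

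Carrying both changes was accompanied by a large shift in expression. Of 12760 probes tested, 1178 (9.23%) passed limma's test at an adjusted p under 0.05, with 714 (5.6%) higher and 464 (3.64%) lower in the Booreana AML1-ETO9a cells. Among those calls the median size of the log2 difference was 1.34, 894 exceeded 1 and 278 exceeded 2, whereas the median over all probes was -0.04. Counted by gene, with 1 probe each, 575 of 8833 genes (6.51%) were higher and 357 (4.04%) lower. In the same fit, 551 probes (4.32%) were called between wild-type AML1-ETO9a and wild-type control, and 809 (6.34%) between Booreana control and wild-type control; all 3 counts share the wild-type control arrays. From the joint group, 210 probes (1.65%) were called against Booreana control and 477 (3.74%) against wild-type AML1-ETO9a. The share of calls that were higher was 60.6% in the main setting, 71.3% when arrays were scaled to 1 median, and 78.9% without normalization between arrays, which moved the median of all probes to 0.14. Without Booreana control array 2 the count was 1539. Leaving out Booreana AML1-ETO9a array 2 and wild-type control array 1 together, an alternative chosen after seeing the data, gave 768.

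**Figure D1:**
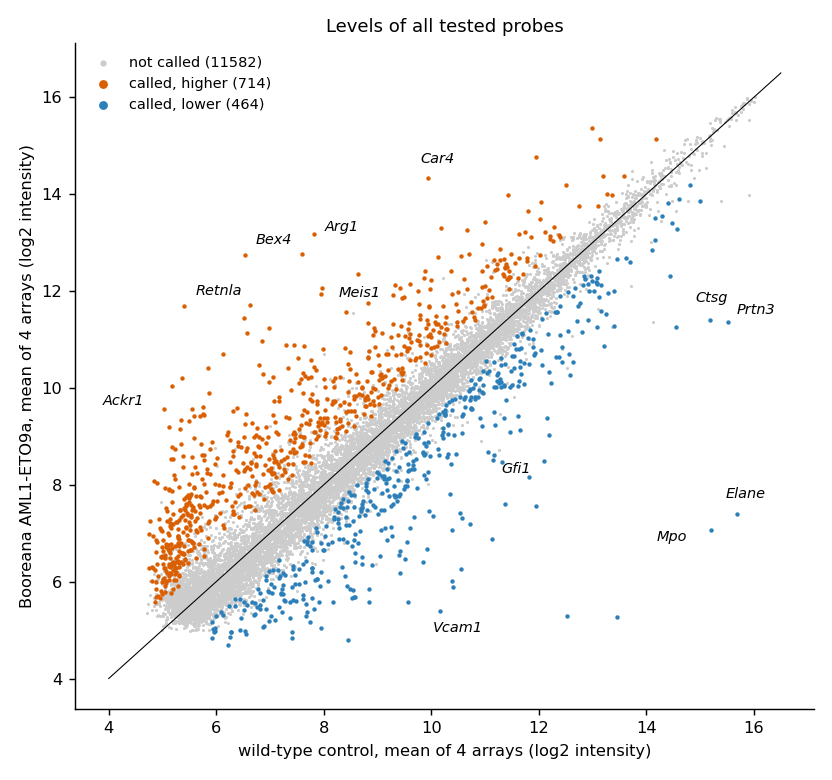
Mean log2 intensity of each of 12760 tested probes over the 4 wild-type control arrays (horizontal axis) and the 4 Booreana AML1-ETO9a arrays (vertical axis), with probes called higher in orange, called lower in blue and the rest in grey. Elane and Mpo lie lowest among the brightest control probes, and Retnla and Bex4 lie farthest above the diagonal.

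The deepest falls were in the neutrophil primary granule genes. Of 12 measured members of that list, 7 fell and 2 rose, and the median log2 difference was -2.29 against -0.03 over all genes. Over all genes 6.51% were called higher and 4.04% lower, and these shares stand beside each list count below. Elane, neutrophil elastase, read 7.20, 8.25, 7.17 and 6.98 on the Booreana AML1-ETO9a arrays and 15.63, 15.59, 15.72 and 15.78 on the wild-type control arrays (log2 intensity, replicates 1 to 4). The groups lay more than 7 log2 units apart at their nearest arrays, and the level was 311-fold lower, a log2 difference of -8.28 ± 0.25 (SE, n = 4 arrays each, adjusted p = 1.17e-11). Mpo, myeloperoxidase, read 7.79, 7.64, 7.73 and 5.09 against 15.46, 14.91, 15.26 and 15.17. Booreana AML1-ETO9a array 4 was not above background, and the log2 difference was -8.14 ± 0.55 (adjusted p = 1.71e-07). On 2 further probes it was -7.22 and -8.17. Their Booreana AML1-ETO9a means were 5.30 and 5.28, near the 5.09 of that array, so these sizes may rest on background readings.

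The RNA of other granule protein genes fell by less and stayed bright. Prtn3, proteinase 3, read 11.43, 10.94, 11.54 and 11.56 in Booreana AML1-ETO9a cells and 15.73, 15.34, 15.34 and 15.65 in wild-type controls, a log2 difference of -4.15 ± 0.23 (adjusted p = 4.49e-08). Ctsg, cathepsin G, read 11.54, 10.93, 11.16 and 11.95 against 15.26, 15.09, 14.94 and 15.46, a difference of -3.79 ± 0.24 (adjusted p = 1.02e-07). No array of one group reached any array of the other for either gene, which follows from how the largest falls were chosen. Ms4a3, a membrane protein of granulocyte precursors, differed by -3.29 ± 0.32 (adjusted p = 4.59e-06).

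The list also holds regulators and inhibitors of these enzymes. Cebpa, the factor that commits progenitors to granulocytes, was dim at 5.44, 6.06, 6.16 and 5.95 against 7.37, 8.16, 8.20 and 7.99 and fell by 2.03 on the log2 scale (SE 0.46, adjusted p = 0.00945). Gfi1, a repressor that neutrophil development needs, read 9.08, 8.48, 8.54 and 8.35 against 11.24, 11.00, 11.32 and 11.09, a log2 difference of -2.55 ± 0.23 (adjusted p = 2.44e-06). Both lay lower on every Booreana AML1-ETO9a array than on any wild-type control array. In the other direction, Serpinb1a, an inhibitor of elastase, proteinase 3 and cathepsin G, read 13.65, 13.06, 13.05 and 13.10 against 11.77, 11.53, 11.73 and 11.97 and rose by 1.47 ± 0.21 (adjusted p = 2.33e-04). Ctsc, the protease that activates the granule enzymes, rose by 0.72 ± 0.19 (adjusted p = 0.0262). That call ended without Booreana AML1-ETO9a array 3 or 4 or wild-type control array 1 or 3, with adjusted p from 0.0514 to 0.0930.

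Set beside the single changes, the primary granule genes differed in where the fall lay. From wild-type control, Elane differed by -2.25 in wild-type AML1-ETO9a cells and by -6.26 in Booreana control cells, and Mpo by -1.46 (adjusted p = 0.209) and -5.26. Prtn3 differed by -1.42 and -3.65. Ctsg differed by -0.37 (adjusted p = 0.65) and -3.35. Booreana AML1-ETO9a cells lay below Booreana controls by a log2 difference of -2.02 for Elane (adjusted p = 4.07e-04) and -2.87 for Mpo (adjusted p = 0.0119). For Prtn3 (-0.50, adjusted p = 0.398) and Ctsg (-0.44, adjusted p = 0.505) that difference did not pass the test. For Cebpa the order was another one: its wild-type AML1-ETO9a difference was -2.54 and its Booreana control difference -0.93 (adjusted p = 0.33). In bulk RNA of this kind, fewer cells of a type and less RNA per cell cannot be told apart. The summed linear level of the list lay between 29730 and 42801 in Booreana AML1-ETO9a arrays and between 194471 and 234450 in wild-type control arrays.

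**Figure D2:**
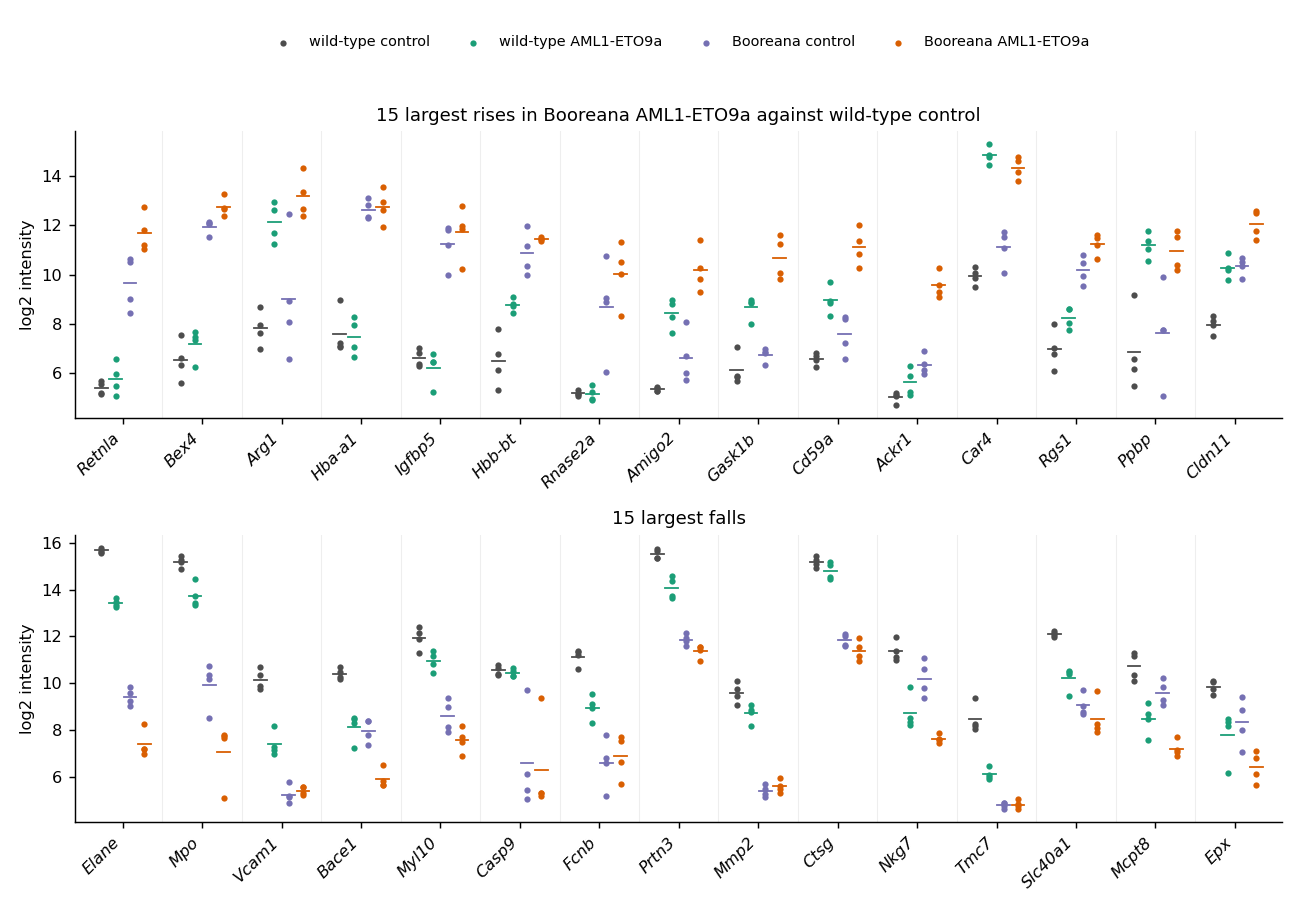
Log2 intensity on every array of the 4 groups (points, 4 per group, with a bar at the mean) for the 15 genes with the largest rises and the 15 with the largest falls in Booreana AML1-ETO9a against wild-type control. In Casp9 1 of the 4 Booreana AML1-ETO9a arrays reads 9.35 and the others near 5.2, and in Mpo 1 reads 5.09 and the others near 7.7.

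Late granule, eosinophil and basophil markers moved in part. Of 20 late granule genes measured, 4 fell and 1 rose, with a median of -0.91, beside 4.04% of all genes lower and 6.51% higher. Fcnb, ficolin B, read 5.67, 7.52, 7.68 and 6.61 against 11.31, 10.60, 11.20 and 11.39, a log2 difference of -4.26 ± 0.50 (adjusted p = 3.59e-05). Orm1, an acute phase glycoprotein, was not above background on any Booreana AML1-ETO9a array and was at least 3.48-fold lower (adjusted p = 2.48e-07). Cebpe, a regulator of late granule genes, fell by 0.90 on the log2 scale (adjusted p = 0.0141); it lost its call when arrays were scaled to 1 median (adjusted p = 0.078) or not normalized (adjusted p = 0.281). Itgb2l fell by 2.18 (adjusted p = 0.0338) and Retnlg rose by 2.06 (adjusted p = 0.031). The Itgb2l call ended without Booreana AML1-ETO9a array 1, 2 or 4 or any 1 wild-type control array (adjusted p 0.0570 to 0.126), and that of Retnlg without Booreana AML1-ETO9a array 1, 3 or 4 or any 1 wild-type control array (0.0574 to 0.0997). Without Booreana AML1-ETO9a array 2 and wild-type control array 1 together, the list had 2 falls and 0 rises.

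Eosinophil markers fell in 4 of 7 cases, and none rose (median -1.80). Without Booreana AML1-ETO9a array 2 and wild-type control array 1 together, 2 fell. Epx, eosinophil peroxidase, read 5.62, 6.80, 7.09 and 6.12 against 10.08, 9.47, 9.76 and 10.04 and fell by 3.43 on the log2 scale (SE 0.53, adjusted p = 5.12e-04). Prg3, a granule protein, fell by 2.52 (SE 0.50, adjusted p = 0.00364). The eosinophil ribonuclease genes fell too, Ear6 with -1.94 (adjusted p = 0.0315) and Ear10 with -1.80 (adjusted p = 0.0144), although members of this family are near-identical and may share signal. Ear6 read 7.27 on Booreana AML1-ETO9a array 1 and between 9.73 and 10.04 on the other 3. Without that array its difference was -1.28 (adjusted p = 0.0628) and the Ear10 call ended as well (adjusted p = 0.0522). The Ear6 call also ended without wild-type control array 1, 3 or 4 (adjusted p up to 0.105). Another ribonuclease of the family, Rnase2a, went the other way: it read 8.32, 10.02, 10.52 and 11.31 against a background level of 5.10 to 5.31 and was at least 19.9-fold higher (adjusted p = 4.18e-04). Its level was at background in wild-type AML1-ETO9a cells, where no array detected it, and 8.68 in Booreana control cells.

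Basophil genes moved in both directions. Mcpt8, a basophil protease, read 7.15, 7.05, 6.86 and 7.71 against 11.15, 10.09, 10.36 and 11.29 and fell by 3.53 on the log2 scale (SE 0.36, adjusted p = 7.21e-06). Prss34, another basophil protease, fell by 2.76 (adjusted p = 0.0143) and Ifitm1 by 1.30 (adjusted p = 0.00193). Dimmer Ifitm1 probes differed by -1.25 (adjusted p = 0.202) and -0.22 (adjusted p = 0.861). The Prss34 call ended without Booreana AML1-ETO9a array 1 or wild-type control array 4 (adjusted p 0.0530 and 0.0535). The cytokine gene Il4 rose instead, reading 10.83, 10.29, 10.86 and 11.44 against 7.40, 6.74, 7.74 and 8.63, a log2 difference of 3.23 ± 0.41 (adjusted p = 6.67e-05). The receptor gene Cd200r3 rose by 3.13 ± 0.46 (adjusted p = 3.16e-04). In all, 2 of 12 basophil genes rose and 3 fell.

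Of 12 mast cell genes measured 9 rose and none fell, with a median of 2.27. Without Booreana AML1-ETO9a array 2 and wild-type control array 1 together, 7 rose. Fcer1a, the alpha chain of the high affinity IgE receptor, read 12.51, 11.67, 11.70 and 13.53 against 8.28, 7.52, 8.43 and 10.29 and rose by 3.72 ± 0.60 (adjusted p = 6.73e-04). Ms4a2, the beta chain of that receptor, rose by 1.62 ± 0.27 (adjusted p = 0.00102). Hdc, which makes histamine, was bright in both groups at 15.28, 14.93, 14.97 and 15.34 against 13.06, 12.88, 13.01 and 13.63, a log2 difference of 1.99 ± 0.23 (adjusted p = 2.65e-05). Slc45a3 read 9.88, 8.81, 8.81 and 10.56 against 6.73, 5.12, 5.93 and 7.46, a log2 difference of 3.21 ± 0.49 (adjusted p = 4.14e-04). Wild-type control array 4 was the highest of its group for each of these genes, yet stayed below every Booreana AML1-ETO9a array. The summed level of the list lay between 51515 and 101308 against 11590 and 25886, while Mcpt4, Mitf, Mrgprb2 and Poln were undetected in both groups.

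Rises were also found for red cell genes. Of 10 erythroid genes 4 rose and 1 fell (median 1.58). Hba-a1, an alpha globin, read 11.93, 12.96, 12.61 and 13.54 against 7.21, 7.05, 7.12 and 8.97, a log2 difference of 5.17 ± 0.46 (adjusted p = 2.00e-06). Hbb-bt, a beta globin outside that list, rose by 4.94 ± 0.45 (adjusted p = 2.45e-06). In the single-change groups, Booreana control cells lay 5.05 and 4.36 above wild-type controls, and wild-type AML1-ETO9a cells -0.10 (adjusted p = 0.99) and 2.26. The water channel Aqp1 rose by 2.00 ± 0.35 (adjusted p = 0.00131), and the regulators Gfi1b and Gata1 by 1.86 ± 0.33 (adjusted p = 0.00158) and 2.05 ± 0.39 (adjusted p = 0.00258). Tfrc, the transferrin receptor, was the 1 that fell, by 1.32 on the log2 scale (SE 0.19, adjusted p = 2.86e-04). Without Booreana control array 2, 8 erythroid genes rose. The summed level of the list overlapped between the groups, 16344 to 25928 against 16156 to 22709.

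Megakaryocyte and platelet genes rose in 8 of 15 cases, and none fell (median 1.30). Ppbp, a chemokine stored in platelets, read 11.79, 10.41, 10.21 and 11.51 against 6.58, 5.48, 6.17 and 9.16, a log2 difference of 4.13 ± 0.85 (adjusted p = 0.00479). Pf4, platelet factor 4, rose by 2.65 ± 0.42 (adjusted p = 6.00e-04) and Treml1 by 3.85 ± 0.61 (adjusted p = 5.81e-04). The thrombin receptor gene F2r read 14.91, 14.52, 14.52 and 15.13 against 11.83, 11.51, 11.67 and 12.77, a difference of 2.82 ± 0.28 (adjusted p = 5.49e-06). Gp5, a subunit of the platelet receptor for von Willebrand factor, rose by 2.65 ± 0.30 (adjusted p = 2.77e-05). Again wild-type control array 4 was the highest control for Ppbp, Treml1, F2r and Gp5. From wild-type control, Ppbp differed by 4.34 in wild-type AML1-ETO9a cells and by 0.77 (adjusted p = 0.70) in Booreana controls, while F2r differed by 0.83 (adjusted p = 0.131) and 2.39.

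Of 9 dendritic cell and MHC class II genes 7 rose and none fell (median 1.35). Cd74, the invariant chain, read 12.97, 14.35, 13.49 and 14.55 against 12.11, 11.88, 12.11 and 12.04, a log2 difference of 1.81 ± 0.28 (adjusted p = 5.49e-04). H2-Eb1 and H2-Aa, chains of the MHC class II molecules, rose by 1.71 ± 0.32 (adjusted p = 0.00210) and 1.57 ± 0.35 (adjusted p = 0.00877). Batf3, a dendritic cell factor, rose by 2.27 ± 0.43 (adjusted p = 0.00260). Against wild-type control, the list median was 1.74 in Booreana controls and 0.12 in wild-type AML1-ETO9a cells. Booreana controls differed by 1.86 for Cd74, 2.08 for H2-Eb1, 1.74 for H2-Aa and 2.74 for Batf3. Itgax, Flt3 and Xcr1, markers of dendritic cells, were undetected in both groups. With Booreana AML1-ETO9a array 2 and wild-type control array 1 left out, 4 of the 9 passed.

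Of 9 monocyte and macrophage genes measured, 2 rose and none fell (median 0.53), beside 6.51% of all genes higher and 4.04% lower. Adgre1, which encodes the F4/80 antigen, read 12.83, 12.59, 12.66 and 12.84 against 10.43, 10.85, 10.70 and 10.20, a log2 difference of 2.18 ± 0.17 (adjusted p = 8.42e-07). Mrc1, the macrophage mannose receptor, rose by 2.50 ± 0.60 (adjusted p = 0.0136), a call that ended without Booreana AML1-ETO9a array 4 (adjusted p = 0.0515). Retnla and Arg1, products of alternatively activated macrophages, were among the largest rises of all. Retnla read 11.19, 11.81, 11.04 and 12.76 where no wild-type control array rose above background, at least 62.6-fold higher (adjusted p = 5.99e-07). Arg1, arginase, read 12.37, 13.36, 12.65 and 14.31 against 6.99, 8.67, 7.64 and 7.97, 40.9-fold higher (adjusted p = 8.99e-04). Booreana AML1-ETO9a array 4 was the highest for Mrc1, Retnla and Arg1. Their single changes differed: Retnla lay 0.37 (adjusted p = 0.91) above wild-type control with AML1-ETO9a alone and 4.24 above it with Booreana alone, and Arg1 4.32 and 1.20 (adjusted p = 0.55).

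Early progenitor genes rose in 6 of 11 cases, and none fell (median 1.18). Cd34, a surface protein of progenitors, read 10.20, 9.07, 9.52 and 9.51 against 6.18, 6.50, 6.38 and 6.51, a log2 difference of 3.18 ± 0.29 (adjusted p = 2.33e-06). Meis1, a homeobox partner of Hox proteins, was nearly constant within the Booreana AML1-ETO9a group at 11.55, 11.55, 11.59 and 11.59 against 9.03, 8.26, 7.88 and 8.47, a difference of 3.16 ± 0.27 (adjusted p = 1.42e-06). Tal1, a helix-loop-helix regulator of stem and red cells, rose by 1.68 ± 0.23 (adjusted p = 1.67e-04). Gata2, which stem cells and mast cells both use, rose by 1.18 ± 0.35 (adjusted p = 0.0410), against 2.36 in Booreana controls and -0.31 (adjusted p = 0.88) in wild-type AML1-ETO9a cells. The Gata2 call ended without any 1 of 9 arrays (Booreana AML1-ETO9a 1, 2 and 4, wild-type control 2, 3 and 4, wild-type AML1-ETO9a 3 and 4, Booreana control 1), with adjusted p from 0.0508 to 0.140. The remaining rises, Spink2 and Slamf1, are described below with the genes that lay beyond all other groups. Hoxa9 was near background and differed by -0.32 (adjusted p = 0.70), and Kit was not analysed here.

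**Figure D3:**
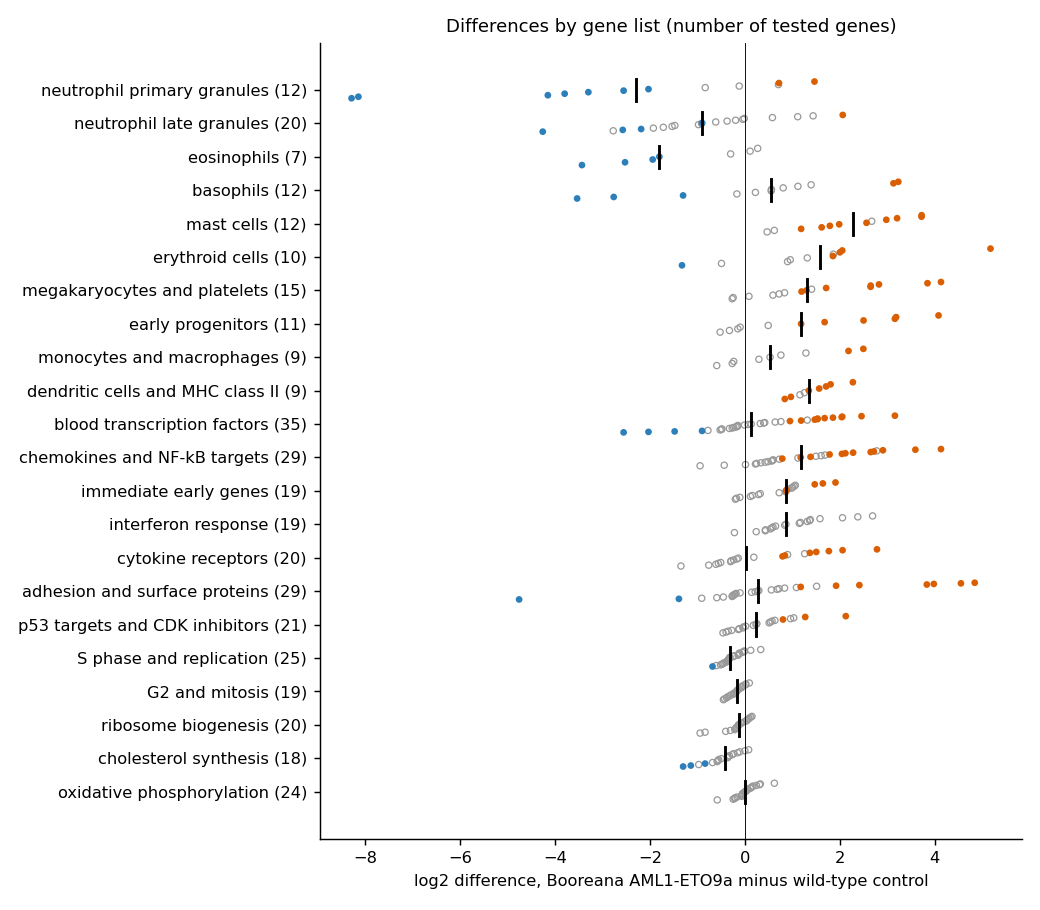
Log2 differences of Booreana AML1-ETO9a minus wild-type control for the tested genes of 22 lists (points, called higher in orange, called lower in blue, open grey otherwise), with a black bar at each list's median. The medians of the primary granule and eosinophil lists lie furthest to the left and that of the mast cell list furthest to the right.

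Among 35 blood transcription factors measured, 11 rose and 4 fell, with a median of 0.13. Myb itself was dim, at 6.06, 5.77, 6.10 and 5.93 against 5.77, 4.92, 5.10 and 5.52, and its difference of 0.64 ± 0.34 did not pass the test (adjusted p = 0.35). With array weights the Myb difference was 0.79 and was called (adjusted p = 0.0281). The other Myb probe differed by 0.03 in the main setting (adjusted p = 0.987). Ep300, the gene of p300, differed by -0.01 ± 0.44 (adjusted p = 0.998), Spi1 by -0.78 ± 0.39 (adjusted p = 0.313) and Myc by -0.10 ± 0.63 (adjusted p = 0.98). Runx1 rose, from 7.73, 8.39, 8.06 and 8.39 to 9.94, 9.39, 9.57 and 9.78, a log2 difference of 1.53 ± 0.23 (adjusted p = 3.84e-04). Whether the Runx1 probe can also read the RUNX1 part of the viral transcript was not tested. Wild-type AML1-ETO9a cells lay 1.33 and Booreana controls 1.08 above wild-type controls for this probe. Zfpm1, the FOG1 cofactor of GATA1, rose by 2.04 ± 0.21 (adjusted p = 9.13e-06). Id3, an inhibitor of helix-loop-helix factors, rose by 2.46 ± 0.38 (adjusted p = 4.50e-04), and its relative Id1 differed by 0.13 ± 0.17 (adjusted p = 0.82). Without Booreana AML1-ETO9a array 2 and wild-type control array 1 the list had 8 rises and 2 falls.

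Genes listed as activated by c-Myb fell in 7 of 13 cases and rose in 1, Cd34 (median -1.48). Genes listed as repressed by AML1-ETO fell in 7 of 16 cases and rose in 1 (median -0.52). Cebpa, Elane, Gfi1, Mpo and Prtn3 fell in both of these lists and stand in the primary granule list as well, with Ms4a3 in the first and Ctsg in the second, so the counts are not separate observations. The other falls were Ets1 in the first list and Cebpe in the second. Of 8 genes listed as activated by AML1-ETO, 4 rose: Cd34, Cdkn1a, Runx1t1 and Tle1 (median 0.39). Tle1, a corepressor that binds RUNX1, rose by 0.64 ± 0.16 (adjusted p = 0.0190), a call that ended without Booreana AML1-ETO9a array 1 or wild-type control array 1 or 4 (adjusted p 0.0553 to 0.0682). The other Tle1 probe differed by 0.29 (adjusted p = 0.59). Of 21 chromatin regulators around Myb and ETO, 3 rose (Runx1, Runx1t1 and Tle1) and 1 fell, beside 6.51% and 4.04% of all genes. The 1 was Mybl2, a cell cycle relative of Myb, at -1.06 ± 0.20 (adjusted p = 0.00210), which missed the threshold without normalization between arrays (adjusted p = 0.124). Dimmer Mybl2 probes differed by -1.12 (adjusted p = 0.0897) and -0.006 (adjusted p = 0.997).

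Of 29 chemokine and NF-kB target genes 12 rose and none fell (median 1.18). Among these, Pf4 and Ppbp are also counted in the megakaryocyte and platelet list and Icam1 in the adhesion list. The counts of these lists are therefore not separate observations. Ccl2, a monocyte chemoattractant, read 8.81, 9.56, 8.61 and 10.89 against 6.98, 6.61, 6.15 and 6.50, a log2 difference of 2.91 ± 0.52 (adjusted p = 0.00167). Il6 rose by 2.28 ± 0.31 (adjusted p = 1.64e-04). The neutrophil chemokines Cxcl1 and Cxcl2 went undetected on all wild-type control arrays and were higher by at least 1.42-fold and at least 3.54-fold (adjusted p = 0.00293 and 0.00149). Their means were higher still in wild-type AML1-ETO9a cells, 8.08 and 9.06 against 6.24 and 7.55 in the Booreana AML1-ETO9a cells. For Cxcl2 the call was absent in the authors' deposited processed values (adjusted p = 0.0764). Both chemokines were undetected in Booreana controls, in which Il6 lay 2.56 above wild-type control.

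Immediate early genes rose in 5 of 19 cases, and none fell (median 0.87). Dusp2 and Dusp1, phosphatases that switch off MAP kinases, rose by 1.91 ± 0.36 (adjusted p = 0.00229) and 0.87 ± 0.22 (adjusted p = 0.0166), Egr2 by 1.64 ± 0.35 (adjusted p = 0.00581) and Ier3 by 0.88 ± 0.17 (adjusted p = 0.00315). Egr1 rose by 1.47 ± 0.41 (adjusted p = 0.0337). The Dusp1 call ended without Booreana AML1-ETO9a array 2 or wild-type control array 2 (adjusted p 0.0597 and 0.0632), and the Egr1 call without Booreana AML1-ETO9a array 1, 2 or 3 or wild-type control array 1, 2 or 4 (0.0558 to 0.115). With the second Booreana AML1-ETO9a array and the first wild-type control array both left out, 2 of the 19 passed. Of 19 interferon response genes 0 passed limma's test and 5 had an unadjusted p under 0.05 (median 0.86), though Gbp2 (2.06, adjusted p = 0.0562) and Irf9 (0.86, adjusted p = 0.0617) were near the threshold. Without Booreana control array 2, both were called. Isg15 read 10.39, 10.44, 8.54 and 13.38 against 9.80, 7.49, 7.40 and 7.31, so that its highest wild-type control array lay above its lowest Booreana AML1-ETO9a array (adjusted p = 0.0943).

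Cytokine receptor genes rose in 7 of 20 cases and none fell, with a median of 0.02, beside 6.51% of all genes higher. Il2ra, the alpha chain of the interleukin 2 receptor, read 8.11, 8.06, 7.58 and 7.85 where no wild-type control array detected it, at least 4.5-fold higher (adjusted p = 3.97e-05). Csf2rb2, the beta chain specific to interleukin 3 in mice, rose by 2.06 ± 0.31 (adjusted p = 3.33e-04). Cxcr2, the receptor for Cxcl1 and Cxcl2, rose by 1.5 ± 0.38 (adjusted p = 0.0182), and Il7r by 1.77 ± 0.46 (adjusted p = 0.0222). These calls ended without Booreana AML1-ETO9a array 1 or wild-type control array 4 for Cxcr2 (adjusted p 0.0555 and 0.0677), and without Booreana AML1-ETO9a array 2 or 4 or wild-type control array 3 for Il7r (0.0652 to 0.0851). With Booreana AML1-ETO9a array 2 and wild-type control array 1 out, 2 of the 20 passed.

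Of the markers on the array, 7 of 11 for B cells, 7 of 13 for T and NK cells and 5 of 14 for stroma and endothelium were undetected in both groups. Of the 2 B cell genes tested 0 passed limma's test, and 0 had an unadjusted p under 0.05. Among 4 T and NK cell genes, Il7r rose and 2 fell: Nkg7, a granule membrane protein, by 3.75 on the log2 scale (SE 0.39, adjusted p = 8.78e-06), and Thy1 by 1.73 (SE 0.34, adjusted p = 0.00317). Cd3d, Cd3e, Cd4 and Cd8a were undetected in both groups. Among 4 stromal genes, Sparc, a matrix glycoprotein, was at least 2.53-fold higher (adjusted p = 0.00207) and Vcam1 lower, while Cdh5, Col1a1 and Col3a1 were undetected in both groups.

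Calls in the proliferation, metabolism and DNA repair lists stand beside 10.6% of all genes called, 6.51% higher and 4.04% lower. In S phase and replication 1 of 25 genes fell, Rrm2 of ribonucleotide reductase, by 0.70 on the log2 scale (adjusted p = 0.0396). The other Rrm2 probe differed by -0.24 (adjusted p = 0.79). In G2 and mitosis 0 of 19 passed limma's test, as did 0 of 20 in ribosome biogenesis, 0 of 24 in oxidative phosphorylation and 0 of 25 in endoplasmic reticulum and amino acid stress. At an unadjusted p under 0.05 these lists had 1, 1, 1 and 0 genes. The medians of these 5 lists lay between -0.32 and 0.02. In cholesterol synthesis 3 of 18 fell (median -0.43): Hsd17b7 by 1.30 (adjusted p = 1.94e-04), Fdps by 1.14 (adjusted p = 8.60e-04) and Mvd by 0.84 (adjusted p = 0.0264). In DNA repair 2 of 23 fell (median -0.08), Xpc, which recognises damage in nucleotide excision repair, and Rad54l, which acts in homologous recombination (-0.48, adjusted p = 0.0478). Xpc read 9.10, 8.88, 9.02 and 9.34 against 11.39, 11.26, 11.50 and 11.71, a difference of -2.38 ± 0.24 (adjusted p = 7.09e-06). The Rrm2 call ended without any 1 of 8 arrays (Booreana AML1-ETO9a 1, 2 and 4, wild-type control 1, 3 and 4, Booreana control 1, wild-type AML1-ETO9a 1; adjusted p 0.05 to 0.145). Mvd lost its call without Booreana AML1-ETO9a 1, 3 or 4 or wild-type control 1, 2 or 4 (0.0522 to 0.0919), and Rad54l without any 1 of 14 arrays, all but Booreana control 2 and 4 (0.0534 to 0.158).

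Of 21 p53 targets and CDK inhibitors 3 rose and none fell (median 0.23), beside 6.51% of all genes higher and 4.04% lower. Cdkn1a, which encodes p21, read 13.14, 13.07, 12.73 and 13.53 against 12.08, 11.82, 11.53 and 11.96, a log2 difference of 1.27 ± 0.19 (adjusted p = 3.56e-04). Cdkn2b, which encodes p15, rose by 2.13 ± 0.33 (adjusted p = 5.14e-04) and Sesn1 by 0.80 ± 0.21 (adjusted p = 0.0256). The Sesn1 call ended without Booreana AML1-ETO9a array 1 or 4 or wild-type control array 2 or 3 (adjusted p 0.0613 to 0.0924). The other Sesn1 probe differed by 0.25 (adjusted p = 0.70). Bcl2 did not pass, at -0.50 ± 0.37 (adjusted p = 0.58). Of 21 BCL2 family and caspase genes, Bik and Casp1 rose and Casp9 fell (median 0.35), beside the same shares of all genes. Bik was at least 1.30-fold higher (adjusted p = 0.0475), and Casp1 rose by 0.59 ± 0.17 (adjusted p = 0.0426). Bik lost its call without any 1 of the 8 arrays compared, Booreana control 1 or wild-type AML1-ETO9a 1, 2 or 3 (adjusted p 0.0508 to 0.149), and Casp1 without any 1 of 11 arrays (all but Booreana AML1-ETO9a 2, Booreana control 2 and 4 and wild-type AML1-ETO9a 3 and 4; 0.0508 to 0.142). Casp9, the initiator caspase of the mitochondrial pathway, read 9.35 on Booreana AML1-ETO9a array 1 and 5.30, 5.16 and 5.28 on the other 3, against 10.36, 10.41, 10.67 and 10.76. Its difference was -4.28 ± 0.94 (adjusted p = 0.00724), while its other probe differed by 1.12 (adjusted p = 0.0696). Booreana control array 1 was high for Casp9 too, at 9.73 against 6.13, 5.43 and 5.05 on arrays 2 to 4. Without Booreana AML1-ETO9a array 2 and wild-type control array 1 the call ended (adjusted p = 0.0559).

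Of 19 glycolysis genes 2 rose and 1 fell (median 0.46), and of 19 lysosome genes 1 fell (median 0.00). Pfkfb4, a regulator of glycolytic flux, had a log2 difference of -1.17 (adjusted p = 0.00406). Neu1, a lysosomal sialidase, had one of -1.02 (adjusted p = 0.00168), and lost its call without normalization between arrays (adjusted p = 0.0565). Aldoc and Eno2 rose by 1.63 (adjusted p = 0.0455) and 1.24 (adjusted p = 0.0275). Aldoc lost its call without any 1 of 10 arrays (Booreana AML1-ETO9a 1 and 4, every wild-type AML1-ETO9a array, every wild-type control array; adjusted p 0.0523 to 0.144), and Eno2 without Booreana AML1-ETO9a 1 or 4 or wild-type control 1, 2 or 3 (0.0672 to 0.103).

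Adhesion and surface genes rose in 7 of 29 cases and fell in 2 (median 0.27), beside 6.51% of all genes higher and 4.04% lower. Amigo2, an adhesion molecule, read 10.27, 9.29, 9.81 and 11.42 where no wild-type control array detected it, at least 22.1-fold higher (adjusted p = 7.09e-06). Cd59a, which blocks the membrane attack complex of complement, read 11.35, 10.85, 10.28 and 12.03 against 6.83, 6.53, 6.26 and 6.69, a log2 difference of 4.55 ± 0.41 (adjusted p = 2.35e-06). Esam and Flrt3, further adhesion molecules, rose by 3.83 ± 0.34 (adjusted p = 2.00e-06) and 3.98 ± 0.39 (adjusted p = 4.96e-06). Booreana AML1-ETO9a array 4 was the highest for Amigo2 and Cd59a, whose lack of overlap between the groups follows from how they were chosen. The groups did not overlap for Esam and Flrt3 either, beside 10.2% of all genes that were called and free of overlap. Vcam1, a ligand of integrins, fell: no Booreana AML1-ETO9a array detected it, wild-type controls read 9.74, 9.87, 10.34 and 10.67, and the fall was at least 23.3-fold (adjusted p = 5.51e-08).

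Several of the largest changes lay outside these lists. Bex4 read 12.37, 12.70, 12.65 and 13.26 against 6.63, 5.62, 6.35 and 7.54, a log2 difference of 6.21 ± 0.37 (adjusted p = 5.51e-08), and Igfbp5, a binding protein of insulin-like growth factors, rose by 5.09 ± 0.51 (adjusted p = 6.48e-06). For both, Booreana control cells were also high, 5.40 and 4.61 above wild-type control, and wild-type AML1-ETO9a cells were not called (0.65 and -0.39, adjusted p = 0.54 and 0.90). Car4, a carbonic anhydrase, read 13.80, 14.61, 14.16 and 14.78 against 9.87, 10.30, 9.50 and 10.06. Its difference of 4.40 ± 0.33 (adjusted p = 4.05e-07) stood beside 4.91 with AML1-ETO9a alone and 1.17 with Booreana alone. Gask1b rose by 4.58 ± 0.39 (adjusted p = 1.56e-06) and Rgs1, a brake on G protein signalling, by 4.25 ± 0.37 (adjusted p = 1.98e-06). Among the falls, Myl10, a myosin light chain, differed by -4.39 ± 0.36 (adjusted p = 1.06e-06), Mmp2, a matrix protease, by -4.0 ± 0.25 (adjusted p = 6.14e-08), and Slc40a1, the iron exporter ferroportin, by -3.62 ± 0.35 (adjusted p = 4.96e-06). Tmc7 was undetected on every Booreana AML1-ETO9a array and at least 7.15-fold lower (adjusted p = 1.71e-07). Over the 30 largest rises and falls, array values of the groups did not overlap by the way they were chosen, and 898 of 8833 genes (10.2%) were both called and free of overlap.

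Calls near the threshold depended on the setting. With Booreana AML1-ETO9a array 2 and wild-type control array 1 both left out, 93 of the 114 called genes named here were called. The calls that ended were those of Aldoc, Bik, Casp9, Cebpe, Ctsc, Cxcr2, Dusp1, Ear6, Ear10, Egr1, Egr2, Gata2, Il7r, Itgb2l, Mrc1, Mvd, Prss34, Rad54l, Retnlg, Rrm2 and Tle1 (adjusted p from 0.0524 for Ear10 to 0.192 for Rad54l). Without normalization between arrays 100 of the 114 were called, and the losses were Casp1, Cebpe, Ctsc, Dusp1, Ear6, Gata2, Itgb2l, Mvd, Mybl2, Neu1, Rad54l, Retnlg, Rrm2 and Sesn1. With median scaling 103 were called, and each loss was among these. In the authors' deposited processed values 110 were called, without Aldoc, Bik, Cxcl2 and Eno2.

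To ask which genes lay beyond all 3 other groups, each probe was required to differ in 1 direction from wild-type control, wild-type AML1-ETO9a and Booreana control, and the largest of the 3 p-values was adjusted over all probes. By this test 14 probes (0.11%) passed, 11 higher (0.0862%) and 3 lower (0.0235%), with 256 at an unadjusted p under 0.05. Of these, 13 carried a gene symbol and 1 did not. Replicate numbers were taken to pair arrays within a genotype, from correlations in these data and not from a label. With that assumed pairing as a random block 23 probes passed. Without Booreana control array 2 the count was 22, and without Booreana AML1-ETO9a array 2 and wild-type control array 1 it was 12.

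Ackr1, a decoy receptor that binds inflammatory chemokines, had the smallest p. It read 9.58, 9.30, 9.10 and 10.29 in Booreana AML1-ETO9a cells, and its means were 5.03 in wild-type controls, 5.64 in wild-type AML1-ETO9a cells and 6.34 in Booreana controls. The nearest group, Booreana control, lay 3.23 ± 0.30 below it (adjusted p of the test against all 3 groups 2.08e-04). Slamf1, the CD150 antigen of stem cells, read 7.34, 6.52, 7.09 and 8.09 and was undetected on all 12 other arrays. Its excess over them was at least 2.83-fold to at least 2.98-fold, depending on the group (adjusted p = 6.38e-04). Spic, an Ets factor of iron-recycling macrophages, read 8.42, 8.21, 8.32 and 7.35 and lay 2.70 ± 0.31 above its nearest group (adjusted p = 8.73e-04). Spink2, a serine protease inhibitor found in progenitors, read 8.96, 8.63, 8.46 and 10.74, 3.26 ± 0.48 above the nearest group (adjusted p = 0.00752). In the authors' deposited processed values the Spink2 call was lost (adjusted p = 0.098).

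Runx1t1, the mouse gene of ETO, was detected on 4 of 4 Booreana AML1-ETO9a arrays and on 0 of the 12 others. It read 7.42, 6.53, 6.63 and 6.28, at least 1.94-fold to at least 2.04-fold above the other groups (adjusted p = 0.00273). Wild-type AML1-ETO9a cells carried the same virus and read 5.14 on average, and whether the probe can read the viral transcript was not tested. In the authors' deposited processed values this call was lost (adjusted p = 0.0909). Cd55, a further regulator of complement, read 12.05, 11.19, 11.07 and 12.69 against means of 8.83 in wild-type controls, 9.70 in wild-type AML1-ETO9a cells and 8.90 in Booreana controls, and its distance to the nearest group was 2.05 ± 0.31 (adjusted p = 0.00752). Serpinb1a, the elastase inhibitor described above, lay 1.39 ± 0.21 above its nearest group, and the means of the 3 other groups lay between 11.68 and 11.82 (adjusted p = 0.00752). Without normalization between arrays that call was lost (adjusted p = 0.0872). Serpina3b, another protease inhibitor, read 7.70, 7.75, 7.63 and 8.70 and lay 2.12 ± 0.31 above its nearest group (adjusted p = 0.00752).

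Calls for the remaining higher genes depended on single arrays. Ptprb, a tyrosine phosphatase of endothelium, passed at an adjusted p of 0.0278, with a nearest distance of 1.66 ± 0.28, and Cldn11, a tight junction protein, at 0.0328 with 1.72 ± 0.30. The Ptprb call ended without Booreana AML1-ETO9a array 2 or 4, wild-type AML1-ETO9a array 1, 2 or 4 or wild-type control array 2 (adjusted p 0.0537 to 0.120), and also without background correction, with replicate number as a block and in the authors' values (0.157, 0.101 and 0.187). The Cldn11 call ended without any 1 of 10 arrays (Booreana AML1-ETO9a 1, 3 and 4, Booreana control 1 and 3, wild-type AML1-ETO9a 1, 3 and 4, wild-type control 2 and 3; 0.0553 to 0.148).

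On the low side, 3 genes lay beyond all groups. Elane lay 2.02 ± 0.25 below Booreana controls and 6.03 below wild-type AML1-ETO9a cells (adjusted p = 0.00155). Serpinf1, a secreted protein of the serpin family, read 5.96, 6.52, 6.33 and 5.87 against 9.34, 9.47, 9.46 and 9.38 in wild-type controls, with 7.96 and 8.08 as the means of the single-change groups (adjusted p = 0.00659). Bace1, a membrane protease, read 6.50, 5.64, 5.81 and 5.65 against 10.48, 10.26, 10.20 and 10.70, with single-change means of 8.12 and 7.97 (adjusted p = 0.00752). Each of the 3 lost its call without normalization between arrays (adjusted p 0.0748 for Elane, 0.106 for Serpinf1 and 0.0876 for Bace1). In the authors' deposited processed values Serpinf1 and Bace1 lost it too (0.0909 and 0.182), and Bace1 also without background correction (0.0646) and without Booreana AML1-ETO9a array 2 and wild-type control array 1 (0.0691).

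**Figure D4:**
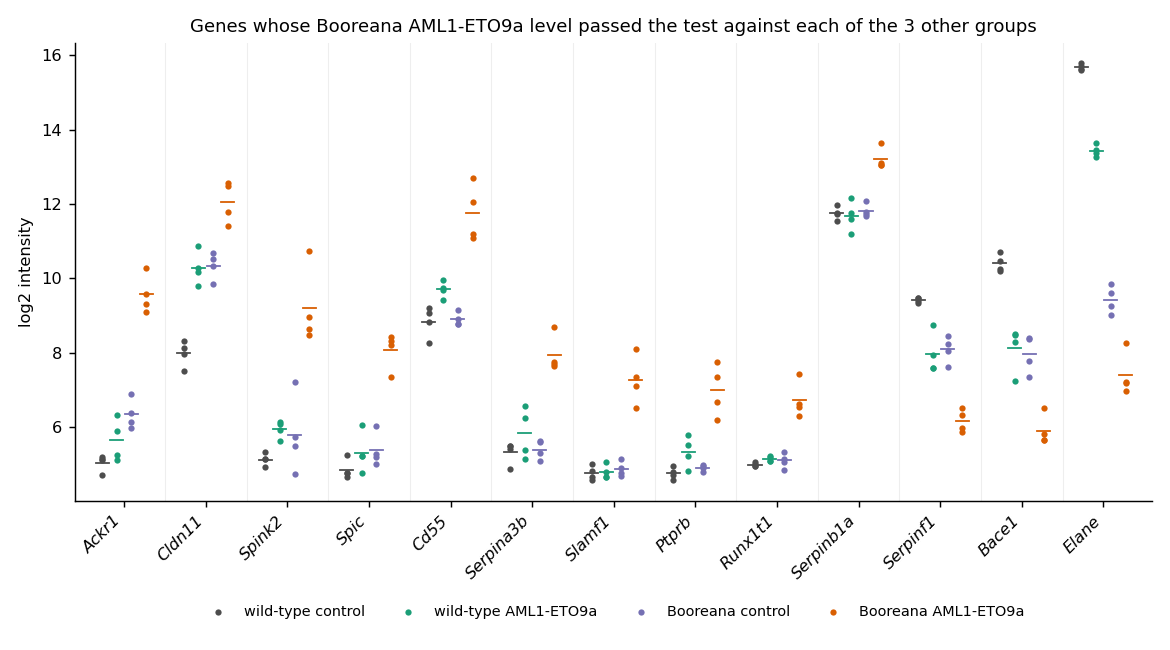
Log2 intensity on every array (points, 4 per group, bar at the mean) of the 13 named genes whose Booreana AML1-ETO9a level passed the test against each of the 3 other groups, ordered by the difference from wild-type control. The 10 genes on the left lie above all other groups and Serpinf1, Bace1 and Elane below them.

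The final comparison set the joint difference against the sum of the 2 single differences on the log2 scale. It is the same contrast as the response to AML1-ETO9a in Booreana cells minus that in wild-type cells. Of 12760 probes 11 (0.0862%) passed, 9 above the sum (0.0705%) and 2 below it (0.0157%), with 849 at an unadjusted p under 0.05. With replicate number within genotype as a block the count was 37 as a fixed term, 19 above and 18 below, and 86 as a random one. With the number 1 to 4 as a block across all groups it was 17. Without Booreana AML1-ETO9a array 2 and wild-type control array 1 it was 5, and without single arrays it fell to 6 (wild-type AML1-ETO9a 2), 7 (Booreana control 1) or 7 (wild-type control 3).

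Cited4, a coactivator that binds p300 and CBP, lay above its sum. It read 7.90, 8.93, 7.97 and 8.93 in Booreana AML1-ETO9a cells and 8.96, 8.28, 7.82 and 8.39 in wild-type controls, so the joint difference was 0.07 ± 0.40 (adjusted p = 0.98) and the arrays overlapped. The single-change groups were both lower, with means of 6.82 with AML1-ETO9a alone and 5.47 with Booreana alone. The fit put the joint level 4.50 ± 0.57 above the sum of the single differences (adjusted p = 0.0053). Booreana controls detected Cited4 on 1 of 4 arrays, and the sum of -4.43 would put it below any signal the arrays report. Gfi1 lay 2.47 ± 0.33 above its sum (adjusted p = 0.0053): its Booreana AML1-ETO9a level was 1.40 above that of Booreana controls, while AML1-ETO9a lowered it by 1.08 in wild-type cells. Slamf1 and Ackr1, given above, exceeded their sums by 2.36 ± 0.36 (adjusted p = 0.0163) and 2.62 ± 0.43 (adjusted p = 0.0250). Ackr1 was detected on 0 of 4 wild-type control arrays and 2 of 4 wild-type AML1-ETO9a arrays. Slamf1 was undetected in every other group. Both departures therefore rest in part on background readings.

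The limit given for the sum of Cited4 applied to Vcam1, Tmc7 and Orm1 as well. They lay 2.95 ± 0.39, 2.38 ± 0.35 and 2.01 ± 0.26 above their sums (adjusted p = 0.0053, 0.0135 and 0.0053). All 3 were undetected on every Booreana AML1-ETO9a array, and the sums of their single differences, -7.70, -6.03 and -4.58, would put them below any signal the arrays report. Lmna, lamin A of the nuclear envelope, was the named gene below its sum, by -1.67 ± 0.27 (adjusted p = 0.0239). It read 12.34, 12.30, 12.21 and 12.08 against 9.68, 10.16, 9.80 and 10.37 in wild-type controls, 2.23 higher, where Booreana alone gave 2.14 and AML1-ETO9a alone 1.76. The Lmna call was lost with median scaling (adjusted p = 0.144) and without normalization between arrays (0.398), and its 4 other probes did not pass (0.116 to 0.394). The other 3 calls were probes of Cldn15 (1.53), Gca (2.54) and Dmwd (-1.42), named after their values were seen, and the brighter probe of each gene did not pass (adjusted p = 0.121, 0.264 and 0.0738). The Slamf1 call ended without wild-type AML1-ETO9a array 2 (adjusted p = 0.0551). Slamf1 and Tmc7 also lost their departure calls without background correction (0.107 and 0.0617), with normexp at an offset of 50 (0.0985 and 0.0591) and in the authors' deposited processed values (0.134 and 0.102). Orm1 lost its call at that offset (0.0543) and without normalization between arrays (0.104). With Booreana AML1-ETO9a array 2 and wild-type control array 1 both left out, the calls of Ackr1 (0.094), Lmna (0.094) and Tmc7 (0.0601) ended. That of Lmna ended without any 1 of 6 arrays (Booreana AML1-ETO9a 3, Booreana control 1, wild-type AML1-ETO9a 2 and 3, wild-type control 1 and 3; 0.0578 to 0.0877), and that of Ackr1 without any 1 of 9 (Booreana AML1-ETO9a 1, Booreana control 1, 3 and 4, wild-type AML1-ETO9a 2 and 3, wild-type control 1, 3 and 4; 0.0514 to 0.0877).

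**Figure D5:**
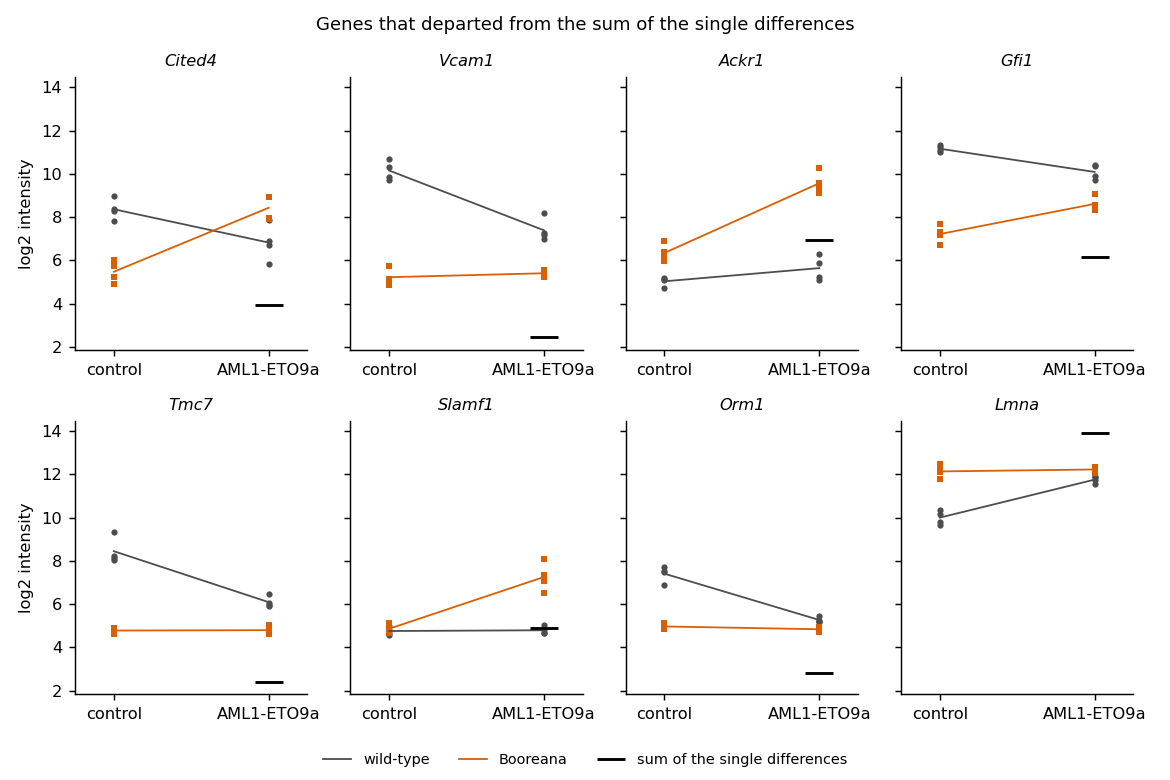
Log2 intensity of the 8 named genes that departed from the sum of the single differences, for control vector and AML1-ETO9a (horizontal axis) in wild-type (grey circles) and Booreana cells (orange squares), 4 arrays per point set with lines through the means. The black dash marks where the sum of the single differences would put the Booreana AML1-ETO9a mean, which lies below the measured mean for 7 genes and above it for Lmna.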

How the data were processed

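Illumina mouse Ref-8 arrays of 16 samples were used, 8 of them in the comparison and all 16 in the fit. For each of 25697 probes and each array, the deposited scanner table gives an intensity that was not normalized, with its detection p-value, per the file headers. The authors also deposited processed log2-like values, whose median was 8.34 on every array. The submitters' processing notes name lumi, and its centring and exact scale are not given in the sources used here. Intensities were corrected with limma's normexp method, with negative control statistics inferred from detection p-values and an offset of 16, quantile normalized and taken to log2 (limma 3.58.1, statmod 1.5.0, R 4.3.3). Testing was limited to probes with a detection p below 0.05 on 4 or more arrays (12760, of which 12015 carried a symbol, for 8833 genes). Names came from the platform annotation, which gave 1 symbol for 23978 probes and none for 1719; 0 symbols were updated through RefSeq identifiers. The probe with the highest mean stood for a gene.

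A limma model with 4 group means gave all differences, with Benjamini-Hochberg adjustment over all tested probes and calls at an adjusted p under 0.05. Errors are standard errors of the fit. Where every array of a group missed a probe, its level there is a bound and the difference is written with "at least": the mean of the detected group was set against the larger, on each array, of the probe's value and the weakest detected signal. The number of arrays limits the precision. Deviations from group means correlated within genotype for every replicate number (0.362 to 0.418 for Booreana, 0.167 to 0.708 for wild-type), but from -0.277 to 0.221 between Booreana AML1-ETO9a and wild-type control, so numbers were taken to pair arrays within a genotype only.

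The members, gene lists and tests were chosen with earlier results of these data known. Named genes were the 15 largest rises and falls among called genes without overlap, up to 4 members per list, up to 10 genes per direction beyond all groups, up to 8 per direction departing from the sum, and a fixed set around c-Myb and AML1-ETO; Ctsc, Ms4a3, Itgb2l, Prss34 and Egr1 were added after their values were seen. Scripts were tested on simulated data. Background correction, normalization, filters, weights, blocks and arrays were varied.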

Additional observations from a re-analysis of the deposited data

Results flagged for a closer look

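In 14 of 250 sets of 4 arrays, 1 array lay far from the other 3 in Dixon's test for an outlying value, which flags about 1 in 20 sets by chance. In the Booreana AML1-ETO9a group these were array 1 for Casp9 (9.35, others 5.16 to 5.30; Booreana control array 1 read 9.73), Ear6 (7.27, others 9.73 to 10.04) and Serpinb1a (13.65, others 13.05 to 13.10), and array 2 for Ep300 (9.61, others 10.39 to 10.53). Array 4 of that group was apart for Mpo (5.09, others 7.64 to 7.79), Serpina3b (8.70, others 7.63 to 7.75) and Irf9 (10.99, others 9.98 to 10.15). In the wild-type control group, array 4 was apart for Hba-a1 (8.97, others 7.05 to 7.21), Gask1b (7.05, others 5.67 to 5.88), Tmc7 (9.36, others 8.06 to 8.23) and Aldoc (8.13, others 7.78 to 7.80). Array 1 was apart for Isg15 (9.80, others 7.31 to 7.49) and Serpina3b (4.87, others 5.41 to 5.49), and array 2 for Hoxa9 (4.80, others 5.94 to 6.14).

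The response to AML1-ETO9a differed between Booreana and wild-type cells, by limma's test of the difference, for 8 named genes. The log2 difference between the responses was 4.50 for Cited4, 2.95 for Vcam1, 2.62 for Ackr1, 2.47 for Gfi1, 2.38 for Tmc7, 2.36 for Slamf1, 2.01 for Orm1 and -1.67 for Lmna. For Cited4, Vcam1, Tmc7 and Orm1 the sums of the single differences lay below any signal the arrays report. Whether the responses of Vcam1, Tmc7 and Orm1 differ beyond that limit was not tested. Those of Cited4 had opposite signs in limma's fit, 2.96 in Booreana cells (adjusted p = 8.10e-04) and -1.54 in wild-type cells (adjusted p = 0.0393). The values of Ackr1 and Slamf1 rest in part on background readings.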

How the results depend on the processing

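Signs of the 114 called genes named here were kept in every setting run, and 98 of 146 single-gene results changed neither sign nor side of the threshold. The number of probes called between Booreana AML1-ETO9a and wild-type control, 1178, stayed within 1.5 times that count except with array weights (2085) and without Booreana AML1-ETO9a array 2 and wild-type control array 1 (768); leaving out 1 array gave 870 to 1539. The 14 probes beyond all groups became 23 without background correction, 24 with median scaling, 37 with array weights and 12 to 22 with 1 array left out. The 11 departures became 21 without background correction, 6 without normalization between arrays, 28 in the authors' processed values, 57 with array weights, 5 without both arrays named above and 6 to 14 with 1 array left out. Replicate number 1 to 4 as a block gave 17 departures. As a block within genotype, which was added after seeing the data, it gave 37 departures as a fixed term, and 86 departures and 23 probes beyond all groups as a random one. Among uncalled genes, the Ep300 difference turned positive without normalization (0.146), with median scaling (0.0354), with array weights (0.00280), without both arrays (0.00408), and without Booreana AML1-ETO9a array 2 (0.202) or wild-type control array 2 (0.117), 3 (0.00486) or 4 (0.0588). That of Myc turned positive without normalization (0.128) and with median scaling (0.0172). Cited4 turned negative without Booreana AML1-ETO9a array 2 (-0.0955) or 4 (-0.0983) or wild-type control array 3 (-0.112), and Id1 without wild-type control array 4 (-0.00187). With 1 array left out, the differences ranged from -0.203 to 0.202 for Ep300, from -0.112 to 0.269 for Cited4 and from -0.00187 to 0.251 for Id1. The cause was not tested. Sizes moved by over 1.5 times for 43 of the 114 genes without background correction, 17 with another offset and 63 in the authors' values. Slide as a block was not run, since the files used here name no slide. Signal near background limits Orm1, Vcam1, Tmc7, Runx1t1, Slamf1, Ackr1 and Cited4.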
